A study of Bos taurus with 16 samples.

Results

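H2AFZ, H2AFY2 and H3F3B encode the replacement core histones H2A.Z.1, macroH2A2 and H3.3, and were read as 3 of the 36824 gene entries of a bovine count table by their symbols (current symbols H2AZ1, MACROH2A2 and H3-3B). RNA came from cattle (Bos taurus), from cumulus cells, which surround the oocyte, and from granulosa cells, which line the wall of the ovarian follicle. There were 4 libraries in each of 4 groups, given by cell type and by side: ipsilateral follicles shared their ovary with the corpus luteum, the gland that makes progesterone after ovulation, and contralateral follicles came from the opposite ovary. Follicular fluid was taken by ovum pick-up, cumulus-oocyte complexes were retrieved from it in pools of 3 animals, and no other treatment is named. The labels give neither the breed nor the age of the cattle, and since pools of separate groups may share animals, p-values measure the spread between pools.

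Most histone genes are switched on with DNA replication and give messages without a poly(A) tail, whereas replacement variant genes give polyadenylated messages through the whole cell cycle. H2A.Z takes the place of H2A around promoters and enhancers and is loaded by the SRCAP and p400 complexes. H3.3 is loaded outside replication, by HIRA at active genes and by DAXX with ATRX at heterochromatin, and in the mouse oocyte HIRA-loaded H3.3 is needed for normal chromatin. MacroH2A carries a large globular macrodomain behind its histone fold and marks repressed chromatin such as the inactive X chromosome. Each of the 3 genes has a sister gene elsewhere in the genome, namely H2AFV (H2AZ2) for H2A.Z.2, H2AFY (MACROH2A1) for macroH2A1, and H3F3A (H3-3A), which encodes the same H3.3 protein as H3F3B.

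Library totals ran from 10.1 to 21.9 M counts. The counts behind the 3 genes ran from 6623 to 26520 for H2AFZ, from 230 to 1563 for H2AFY2 and from 7688 to 21502 for H3F3B. Counting error alone was therefore at most 1.23% for H2AFZ, 6.59% for H2AFY2 and 1.14% for H3F3B. Of the 36824 entries, 27607 were Ensembl numbers without a symbol and 2474 carried a name, so a gene not found by name may be present unnamed. Of 22 listed granulosa and cumulus markers, 0 were found by name in the table, so the labelled cell types were not checked against them. Of 14 listed oocyte markers 2 were found, H1FOO and BCL2L10. They summed to 204 CPM (counts per 1 M library counts, scaled between libraries) in contralateral cumulus library 4. The sum was 18.6 CPM in contralateral cumulus library 2 and 10.8 CPM in contralateral granulosa library 3, against at most 1.38 CPM in the other libraries. MUC16, the 1 found of 5 listed surface epithelium markers, reached 44.3 CPM in ipsilateral granulosa library 3 and 24.7 CPM in contralateral granulosa library 3. Of 7 listed leukocyte markers only the chemokine gene PF4 was found. It lay at or below 0.243 CPM in cumulus libraries and between 0.449 and 3.91 CPM in granulosa libraries. The part of these RNAs in the values of the 3 genes was not tested, and values that leave out the 3 libraries highest in oocyte markers are given beside the main ones. In pooled cells, fewer cells of a type and less RNA per cell cannot be told apart.

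All 3 genes were lower in cumulus than in granulosa cells, H2AFY2 2.19-fold, H2AFZ 1.64-fold and H3F3B 1.30-fold. By edgeR's quasi-likelihood test with Benjamini-Hochberg adjustment over 18038 entries, each passed at an adjusted p under 0.05. A call in this comparison was common, since 60.2% of all entries tested passed and 30.3% passed with the lower level in cumulus cells. Entries with a larger change than the gene itself made up 29.9% of those tested for H2AFY2, 45.6% for H2AFZ and 66.1% for H3F3B. The plot of levels by library shows the values of the 4 groups.

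**Figure D1:**
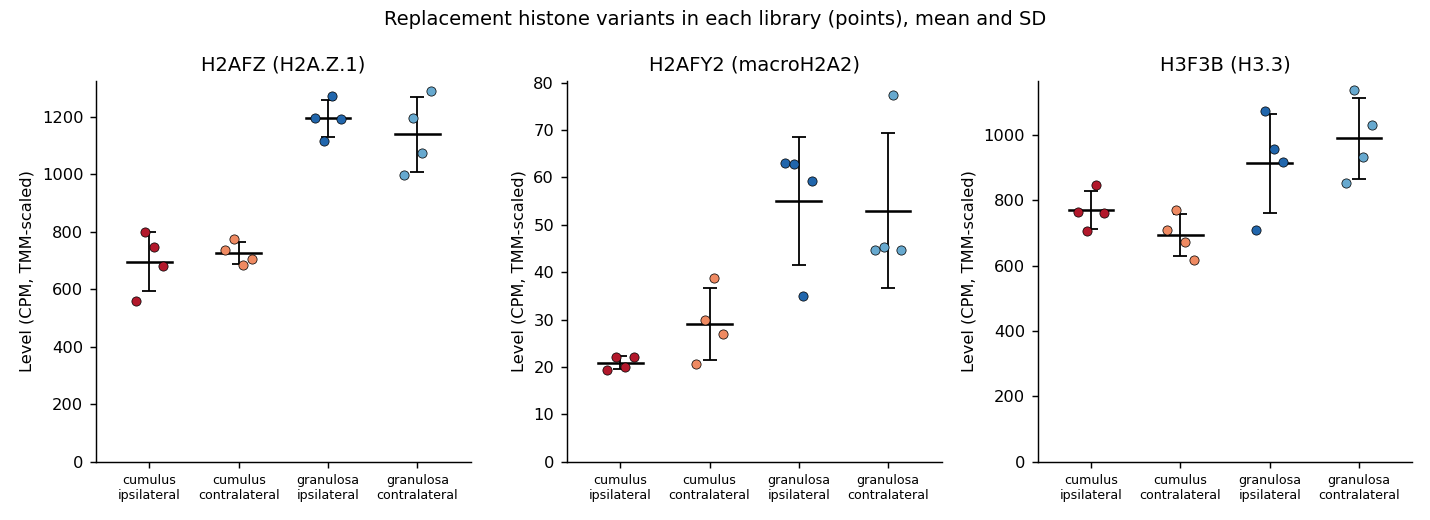
Level of H2AFZ, H2AFY2 and H3F3B (y axis, TMM-scaled CPM, from 0) in each of the 16 libraries (points), with the group mean (horizontal line) and SD (bar) for 4 libraries per group on the x axis. H2AFZ lies between 559.9 and 798 CPM in cumulus libraries and between 996 and 1288 CPM in granulosa libraries, whereas the cell types overlap for H2AFY2 and H3F3B.

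H2AFZ, the H2A.Z.1 gene, stood at 559.9, 798, 745 and 679 CPM in the ipsilateral cumulus libraries and at 736, 776.5, 685 and 707 CPM in the contralateral cumulus libraries. In granulosa cells it stood at 1196, 1116, 1274 and 1193 CPM on the ipsilateral side and at 996, 1197, 1074 and 1288 CPM on the contralateral side. Every cumulus library lay below every granulosa library, as was the case for 14.5% of all entries tested, and the low cumulus value belonged to ipsilateral library 1. Cumulus cells averaged 711 ± 73.9 CPM, against 1167 ± 99.4 CPM for granulosa cells (SD over 8 libraries of each). The log2 fold change, cumulus minus granulosa, was -0.71 ± 0.08 SE (edgeR adjusted p = 6.1e-07). With the 3 libraries highest in oocyte markers left out it was -0.75 (adjusted p = 2.01e-05).

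The difference in H2AFZ stood on both sides of the corpus luteum. It was -0.78 ± 0.11 SE between the ipsilateral groups (edgeR adjusted p = 2.36e-05) and -0.65 ± 0.11 SE between the contralateral groups (adjusted p = 0.000127). Between the ipsilateral groups 45.5% of entries passed, 24% with the lower level in cumulus cells, and between the contralateral groups 47.6% passed, 23.8% with the lower level in cumulus cells. The fitted biological coefficient of variation of H2AFZ was 0.131, against a median of 0.274 over all entries. A lower one was found in 9.06% of all entries and in 34.9% of the 126 entries of like level.

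H2AFY2, the macroH2A2 gene, stood at 19.4, 22.2, 19.98 and 22.1 CPM in the ipsilateral cumulus libraries and at 20.6, 29.9, 38.8 and 27.0 CPM in the contralateral cumulus libraries. In granulosa cells it stood at 63.1, 62.8, 35.0 and 59.3 CPM on the ipsilateral side and at 44.6, 45.3, 77.4 and 44.6 CPM on the contralateral side. The cell types overlapped through 1 library of each, contralateral cumulus library 3 and ipsilateral granulosa library 3, while within each side every cumulus library lay below every granulosa library, as did 21.6% of entries on the ipsilateral and 21.7% on the contralateral side. Cumulus cells averaged 25.01 ± 6.65 CPM, against 54.0 ± 13.9 CPM for granulosa cells (SD over 8 libraries of each), and the log2 fold change was -1.13 ± 0.16 SE (edgeR adjusted p = 1.54e-05). It was -1.39 ± 0.23 SE between the ipsilateral groups (adjusted p = 0.000132) and -0.87 ± 0.23 SE between the contralateral groups (adjusted p = 0.00483).

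Library numbers run within a group and pair no libraries between groups. The extremes of H2AFY2 among granulosa cells were ipsilateral library 3, the lowest, and contralateral library 3, the highest. These 2 libraries also held the highest MUC16 values on their sides, and the part of that in the H2AFY2 values was not tested. With the 3 libraries highest in oocyte markers left out, the log2 fold change was -0.998 over both sides (edgeR adjusted p = 0.000264). Between the contralateral groups it was then -0.59 and did not pass (adjusted p = 0.0985), whereas with contralateral cumulus library 2 kept it just passed (adjusted p = 0.0492). Without contralateral granulosa library 3 alone, the highest for H2AFY2, the contralateral value was -0.63 (edgeR adjusted p = 0.0218). It was -0.835 without contralateral cumulus library 4 alone (adjusted p = 0.0151) and -0.88 without contralateral cumulus library 2 alone (adjusted p = 0.0111). The fitted biological coefficient of variation of H2AFY2 was 0.233, and 41.8% of all entries and 80.7% of the 2520 entries of like level had a lower one. In the reference annotation (RefSeq genes of ARS-UCD2.0) H2AFY2 overlaps the protein-coding gene AIFM2 and the pseudogene LOC132344140. Its sister gene H2AFY overlaps the long non-coding RNA gene LOC104969177. These overlaps are of whole gene spans, and neither the strand nor the exons of the genes were compared. The libraries also carry no strand, so reads in the shared stretches may not be assigned with certainty.

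H3F3B, one of the H3.3 genes, stood at 764, 705, 845 and 761 CPM in the ipsilateral cumulus libraries and at 708.5, 770.0, 672 and 617 CPM in the contralateral cumulus libraries. In granulosa cells it stood at 707, 1071, 957 and 916 CPM on the ipsilateral side and at 851, 1138, 933 and 1031 CPM on the contralateral side. Ipsilateral granulosa library 1 lay below 5 of the 8 cumulus libraries, and the other granulosa libraries lay above all of them. Cumulus cells averaged 730.3 ± 69.8 CPM, against 950.5 ± 134.5 CPM for granulosa cells (SD over 8 libraries of each), and the log2 fold change was -0.38 ± 0.09 SE (edgeR adjusted p = 0.00113). With the 3 libraries highest in oocyte markers left out it was -0.40 (adjusted p = 0.00515).

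The cell type difference of H3F3B passed between the contralateral groups, at -0.51 ± 0.12 SE (edgeR adjusted p = 0.0025). Between the ipsilateral groups it was -0.25 ± 0.12 SE and did not pass (adjusted p = 0.108). Without ipsilateral granulosa library 1 the ipsilateral value was -0.35 and passed (adjusted p = 0.0169). The test of the difference between the ipsilateral and contralateral values, 0.27 ± 0.17 SE, did not pass (adjusted p = 0.744).

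The list of replacement variants held 13 genes, and 11 were found in the table. Of 10 tested between the cell types, H2AFZ, H2AFY2 and H3F3B were lower in cumulus cells and H2AFV and H3F3A were higher. The other 5 did not pass. Of all entries tested, 60.2% passed, 30.3% with the lower and 29.9% with the higher level in cumulus cells. The median log2 fold change over the 10 variants was 0.06, against 0.03 over all entries tested. H2AFV averaged 303 ± 29.3 CPM over cumulus libraries, against 254 ± 19.0 CPM over granulosa libraries, a log2 fold change of 0.25 ± 0.07 SE (edgeR adjusted p = 0.00389). H3F3A averaged 340.4 ± 32.1 CPM over cumulus libraries, against 268 ± 40.0 CPM over granulosa libraries (SD, 8 libraries of each), a log2 fold change of 0.34 ± 0.09 SE (adjusted p = 0.00322). The other sister gene, H2AFY, stood at 125 ± 14.3 CPM in cumulus against 108 ± 19.5 CPM in granulosa cells, and its 0.21 ± 0.10 SE did not pass (adjusted p = 0.0925). It passed on library totals alone (0.29, adjusted p = 0.0307) and without ipsilateral granulosa library 1 (0.28, adjusted p = 0.0163).

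The remaining variants did not pass. H2AFJ (H2AJ), a variant H2A, had -0.14 ± 0.06 SE (edgeR adjusted p = 0.0726), and passed with RLE size factors (adjusted p = 0.0474) and by DESeq2, with the filter on low counts (adjusted p = 0.0219) and without it (0.0218). H2AFX (H2AX), whose protein is phosphorylated at DNA breaks, had 0.22 ± 0.31 SE. It ranged from 10.1 to 42.1 CPM in cumulus and from 10.4 to 52.6 CPM in granulosa libraries. H3F3C, an H3.3-like gene, had -0.08 ± 0.19 SE, with 0.004 on library totals alone, and HIST3H2A (H2AW) had 0.70 ± 0.68 SE at levels no higher than 2.10 CPM. LOC104970512, named as the H2A.B gene of the list by its NCBI number, had 0 counts in all 16 libraries, which allows up to 3 counts or 0.317 CPM in the shallowest library.

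**Figure D2:**
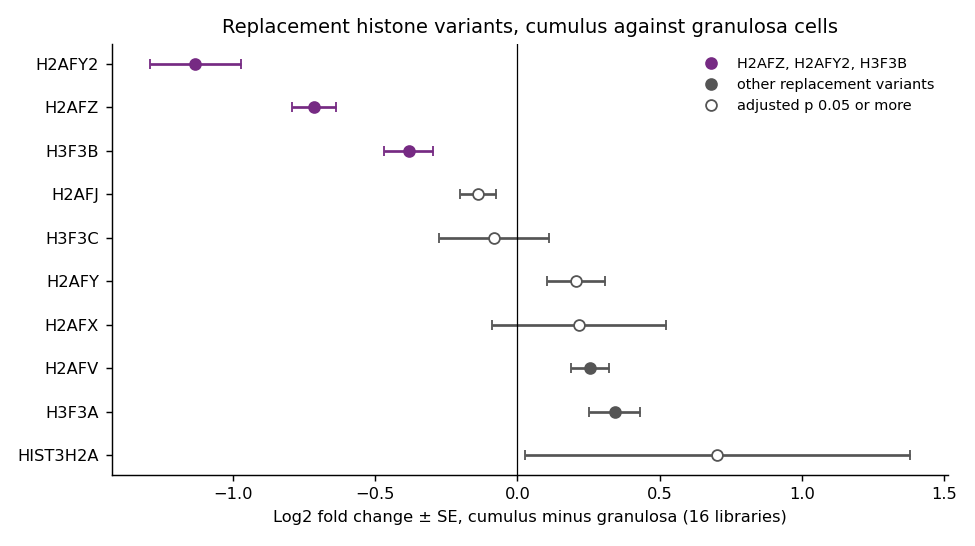
Log2 fold change with its SE (x axis, cumulus minus granulosa cells, 16 libraries) of the 10 replacement histone variants tested (y axis), with open circles at an adjusted p of 0.05 or more. H2AFY2 (-1.13), H2AFZ (-0.71) and H3F3B (-0.38) lie left of 0, and H2AFV (0.25) and H3F3A (0.34) lie right of 0.

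In 2 of the 3 pairs the sister gene differed in the opposite direction. The count ratio within a library, which does not depend on how libraries are scaled, shows the contrast library by library. No levels are compared between genes here, since the ratio is not corrected for transcript length and only its change from library to library is read. Ratios of the cell types did not overlap in any of the 3 pairs. The share of other gene pairs whose ratios separate so was not computed, and of single entries 14.5% lay lower and 13.5% higher in every cumulus library than in every granulosa library. The ratios were examined after the values of the genes had been seen and carry no test.

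H3F3B counts were 2.09, 2.04, 2.12 and 2.36 times those of H3F3A in ipsilateral cumulus libraries and 2.01, 2.36, 2.12 and 2.09 times in contralateral cumulus libraries. In granulosa libraries the ratio was 3.54, 3.29, 3.54 and 3.80 on the ipsilateral side and 3.49, 3.69, 3.38 and 3.66 on the contralateral side. The cell types did not overlap, and the means were 2.15 ± 0.135 in cumulus and 3.55 ± 0.166 in granulosa cells (SD, n = 8 each). Ipsilateral granulosa library 1, which was low for H3F3B, was also low for H3F3A at 199.8 CPM, and its ratio of 3.54 was close to the granulosa mean. Within a cell type the Pearson r of the log2 levels of H3F3B and H3F3A was 0.79 over the 8 cumulus and 0.95 over the 8 granulosa libraries. Points of such a correlation share library, depth and scaling factor.

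The ratio of H2AFZ to H2AFV counts lay between 1.98 and 2.65 in cumulus libraries, with a median of 2.36, and between 3.77 and 5.35 in granulosa libraries, with a median of 4.60. The mean log2 ratio was lower by 0.97 in cumulus cells, a 1.96-fold difference. Inside a cell type the Pearson r of H2AFZ and H2AFV was 0.65 over the cumulus and -0.22 over the granulosa libraries. The low H2AFZ value of ipsilateral cumulus library 1 went with the lowest H2AFV value of the cumulus libraries, at 253 CPM.

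The ratio of H2AFY2 to H2AFY counts lay between 0.157 and 0.248 in cumulus libraries, with a median of 0.191, and between 0.378 and 0.644 in granulosa libraries, with a median of 0.470. The difference in mean log2 ratio was -1.33, or 2.52-fold. Inside a cell type the Pearson r of H2AFY2 and H2AFY was 0.77 over the cumulus and 0.73 over the granulosa libraries. Ipsilateral granulosa library 3, lowest of the granulosa libraries for H2AFY2, was also lowest for H2AFY, at 79.1 CPM.

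**Figure D3:**
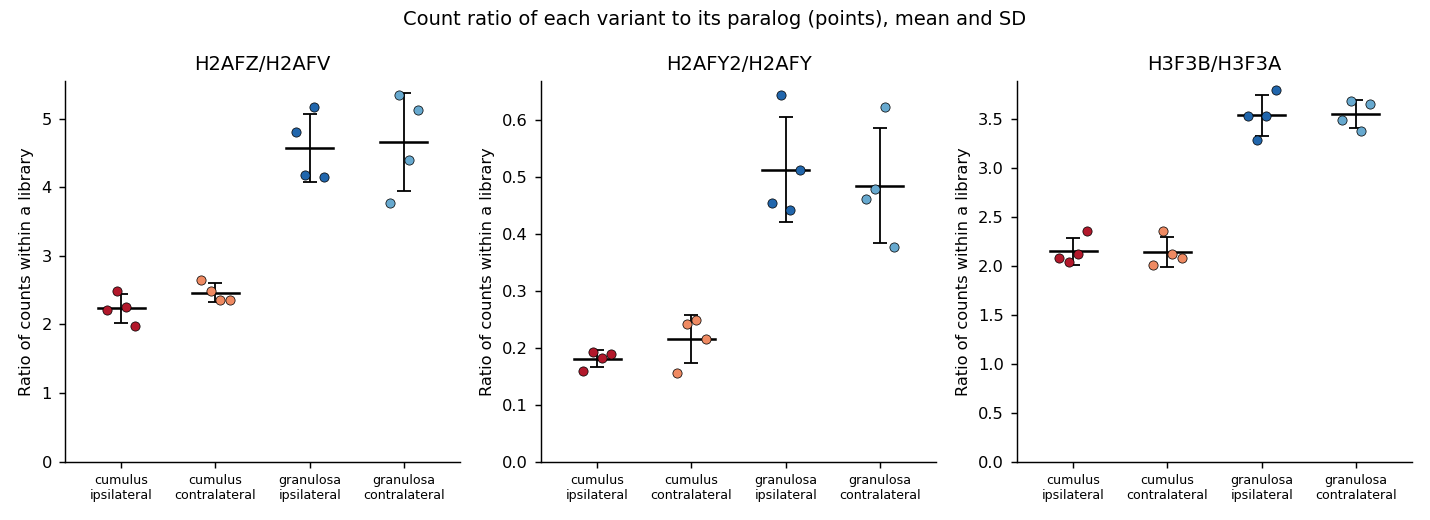
Ratio of counts within a library (y axis, from 0) for H2AFZ to H2AFV, H2AFY2 to H2AFY and H3F3B to H3F3A in the 4 groups (x axis), with each library as a point, the mean as a line and the SD as a bar. For each pair all cumulus points lie below all granulosa points, and for H3F3B to H3F3A they lie between 2.01 and 2.36 against 3.29 and 3.80.

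**Figure D4:**
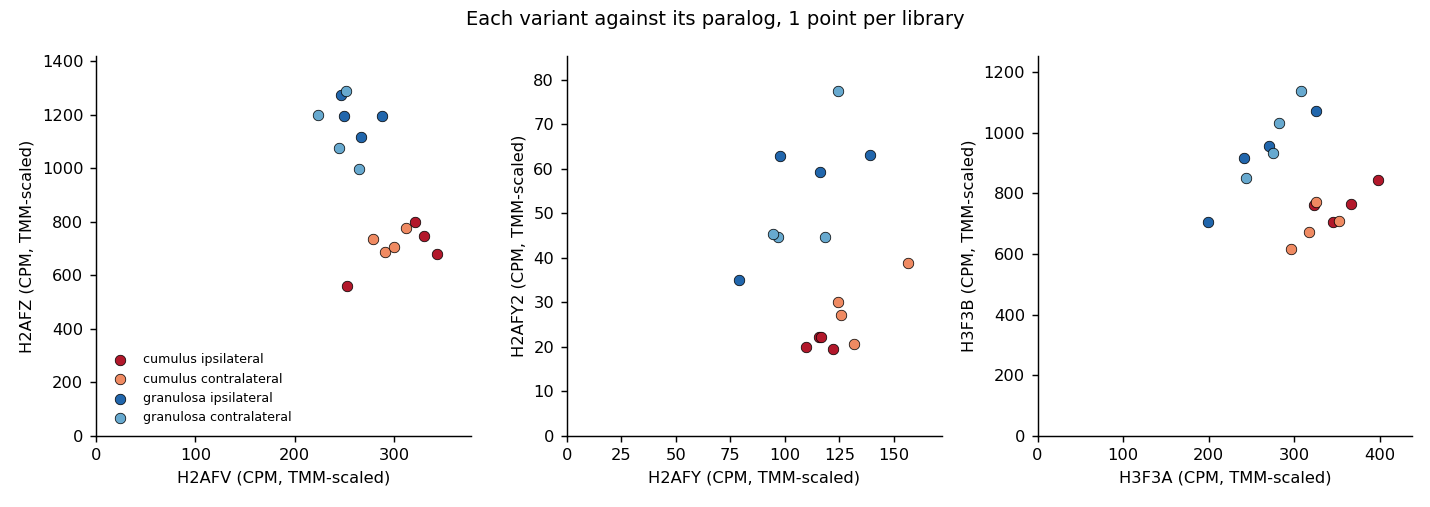
Level of each gene (y axis, TMM-scaled CPM) against that of its sister gene (x axis, TMM-scaled CPM), with 1 point per library and colours for the 4 groups. In the panel of H3F3B against H3F3A the cumulus and granulosa libraries lie along separate tracks, with a Pearson r of 0.79 and 0.95 within the cell types.

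The sources used here do not say how reads that map to several places were counted. H3F3A and H3F3B encode the same protein, H3F3C is an H3.3-like gene, and H2AFZ and H2AFV encode H2A.Z.1 and H2A.Z.2. How alike their messages are was not examined, so the split of reads between such copies is uncertain. Each gene also had an unnamed Ensembl entry with nearly the same counts. The closest one differed from H3F3B by 0.0668% of its counts summed over libraries, from H2AFY2 by 0.0756% and from H2AFZ by 1.87%. The next closest entry differed by at least 7.81%. With the closest Ensembl entries in place of the symbol entries, the log2 fold changes between cell types were -0.38, -1.13 and -0.72.

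Library patterns of the 3 genes were compared inside each cell type. Over the 8 cumulus libraries the Pearson r of log2 levels was 0.18 between H2AFZ and H2AFY2, -0.03 between H2AFZ and H3F3B, and -0.49 between H2AFY2 and H3F3B. Over the 8 granulosa libraries it was -0.40, 0.21 and -0.26 for the same pairs. Between H2AFY2 and H2AFX it was 0.62 over the cumulus and 0.81 over the granulosa libraries. No other variant outside the sister genes was compared in this way. The share of entries with such an r was not computed.

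Over all 16 libraries, the named entries with levels most like H2AFZ were LOC534742 (SLC25A24, a mitochondrial carrier gene), TNIK, a kinase gene, and SYN3, a synapsin gene, with a Pearson r of log2 levels of 0.95, 0.94 and 0.94 among 812 named entries compared. For H2AFY2 they were FAM129B (0.92), ST5 (DENND2B, 0.91) and SYN3 (0.89). For H3F3B they were SNURF (0.90), ATP5MD (ATP5MK, an ATP synthase subunit gene, 0.87) and SEPT7 (SEPTIN7, a septin gene, 0.84). All of these entries were lower in cumulus cells, with edgeR adjusted p values of 3.22e-05 or less, and r over all 16 libraries includes that difference. Over the cumulus libraries alone r with these entries lay between 0.27 and 0.42 for H2AFZ, between 0.55 and 0.88 for H2AFY2 and between 0.83 and 0.91 for H3F3B. Over the granulosa libraries alone it lay between 0.26 and 0.61 for H2AFZ, between -0.09 (SYN3) and 0.71 for H2AFY2, and between 0.58 and 0.73 for H3F3B.

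Genes that load, remove or read these proteins were looked for as well. By name, 0 of 35 listed for H2A.Z, 1 of 15 for H3.3, 0 of 9 for macroH2A and 0 of 9 for assembly at replication were found. The rest may be among the entries without a name. LOC101906870 (HIRA), whose human product loads H3.3, averaged 4.50 ± 1.47 CPM over cumulus libraries, against 4.44 ± 1.99 CPM over granulosa libraries (SD, 8 libraries of each), and its log2 fold change of -0.04 ± 0.28 SE did not pass (edgeR adjusted p = 0.918). Its sign turned on library totals alone (0.038), by limma-voom (0.011) and without the 3 libraries highest in oocyte markers (0.19).

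The title of the series names proximity to the corpus luteum, which ipsilateral and contralateral groups address. In cumulus cells H2AFY2 averaged 20.9 ± 1.43 CPM on the ipsilateral side, against 29.1 ± 7.54 CPM on the contralateral side (SD, n = 4 each). In 14 of 16 pairs of libraries the ipsilateral one had the smaller value. The log2 fold change, ipsilateral minus contralateral, was -0.48 ± 0.18 SE and did not pass (edgeR adjusted p = 0.413, unadjusted p = 0.0197). Without contralateral cumulus library 3 it was -0.31 (adjusted p = 0.639). In this comparison edgeR called 0% of 16323 entries and limma-voom 0, and 1791 entries or 11% had an unadjusted p under 0.05. DESeq2 called 109 entries with the filter on low counts and 120 without it, and gave H2AFY2 adjusted p-values of 0.251 and 0.273. With the 3 libraries highest in oocyte markers left out, edgeR called 30 of 16908 entries, and H2AFY2 did not pass (-0.51, adjusted p = 0.34).

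Its sister gene H2AFY stood at 122, 115.5, 109.7 and 116.5 CPM in ipsilateral and at 132, 124, 156 and 126 CPM in contralateral cumulus libraries. The 4 ipsilateral values lay below the 4 contralateral ones, as for 2.4% of entries tested, and the log2 fold change of -0.22 ± 0.09 SE did not pass (edgeR adjusted p = 0.439). LOC101906870 (HIRA) lay between 4.51 and 7.13 CPM in ipsilateral and between 2.77 and 3.96 CPM in contralateral cumulus libraries, also with no overlap, as for 2.79% of entries with the ipsilateral values above, and its 0.75 ± 0.24 SE did not pass (adjusted p = 0.404). H2AFZ averaged 696 ± 103 CPM over ipsilateral cumulus libraries, against 726 ± 39.6 CPM over contralateral ones, and the log2 fold change was -0.07 ± 0.11 SE (adjusted p = 0.848). Its sign turned without ipsilateral cumulus library 1 (0.02). H3F3B averaged 769 ± 57.6 CPM over ipsilateral libraries, against 692 ± 64.2 CPM over contralateral ones, a log2 fold change of 0.15 ± 0.09 SE (adjusted p = 0.566). Neither H2AFZ nor H3F3B passed, and their ipsilateral and contralateral cumulus values overlapped.

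In granulosa cells the side values of all 3 genes overlapped and none passed. H2AFZ averaged 1195 ± 64.4 CPM over ipsilateral, against 1139 ± 129.6 CPM over contralateral libraries, a log2 fold change of 0.07 ± 0.11 SE. H2AFY2 averaged 55.0 ± 13.5 CPM over ipsilateral, against 53.0 ± 16.3 CPM over contralateral libraries, at 0.05 ± 0.24 SE. H3F3B averaged 913 ± 152 CPM over ipsilateral, against 988 ± 124 CPM over contralateral libraries, at -0.11 ± 0.14 SE (SD, n = 4 each). The adjusted p was 0.9996 for each by edgeR, which called 0% of 16411 entries, while limma-voom called 0 and DESeq2 1, both with and without the filter, and 579 entries or 3.53% had an unadjusted p under 0.05. The sign of the H2AFY2 value turned when any 1 of 5 granulosa libraries was left out, namely ipsilateral library 1 or 2 or contralateral library 1, 2 or 4, with a lowest value of -0.03.

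Whether the side difference itself differs between the cell types was tested in all 16 libraries. The difference, cumulus minus granulosa, was -0.13 ± 0.15 SE for H2AFZ (edgeR adjusted p = 0.875), -0.53 ± 0.32 SE for H2AFY2 (adjusted p = 0.724) and 0.27 ± 0.17 SE for H3F3B (adjusted p = 0.744). None passed, and edgeR called 0% of 18038 entries, with 1358 entries or 7.53% at an unadjusted p under 0.05, while limma-voom called 0 and DESeq2 0 with the filter and 1 without it. Without ipsilateral cumulus library 1 the value of H2AFZ was -0.03, without ipsilateral granulosa library 1 that of H3F3B was 0.16, and over all libraries left out in turn H2AFY2 ran from -0.77 to -0.36. With the 3 libraries highest in oocyte markers left out, the value of H2AFY2 was -0.81 (adjusted p = 0.491).

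**Figure D5:**
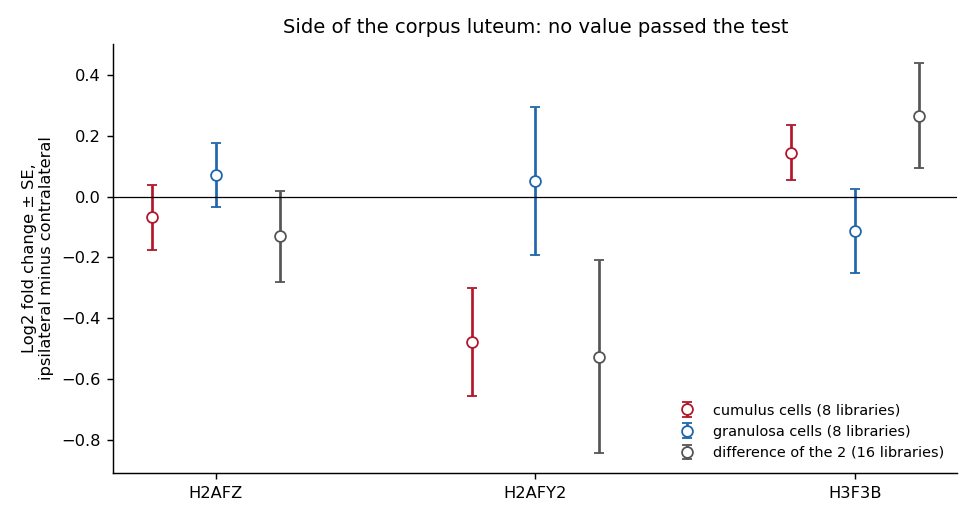
Log2 fold change with its SE (y axis, ipsilateral minus contralateral) of H2AFZ, H2AFY2 and H3F3B (x axis) in cumulus cells, in granulosa cells, and as the difference of these effects. The value farthest from 0 within a cell type is that of H2AFY2 in cumulus cells, at -0.48, and no value passed the test.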

How the data were processed

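Per the labels' protocols, DNase-treated RNA went through the SMART-Seq HT and Nextera XT kits, which do not mark strand, and was sequenced as 75-bp single-end reads. Named in the submitters' processing notes, with no versions, are FastQC, Trimmomatic, STAR and DESeq2. The sources used here name no genome build, annotation or counter. The authors deposited unnormalized read counts per gene entry, and each column was matched to a sample by its title.

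Low entries were removed by filterByExpr, at a count of 10 and a total of 15, and the rest were scaled with TMM factors and tested with edgeR 4.0.16 (robust quasi-likelihood F-test, R 4.3.3), with Benjamini-Hochberg adjustment over all entries tested and a threshold of 0.05. Cell types and the difference of side effects were compared in 16 libraries with 4 group means, and sides in the 8 libraries of a cell type. SE was taken as the absolute log2 fold change over the root of the F statistic. Correlations used log2 CPM with a prior count of 2. Alternatives were DESeq2 1.42.0 with and without that filter, limma-voom 3.58.1, other scalings, no filter, and each library left out. A further one dropped entries whose counts were identical to those of an earlier entry in every library. The near copies of H2AFZ, H2AFY2 and H3F3B among the Ensembl entries stayed in. The fits were tested on simulated data. Replicate libraries differed beyond sampling noise, with a chi-square per entry from 12.0 to 72.3 where 1 library sequenced again would give about 1.

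The genes, gene lists and markers were chosen with earlier results of these data known. Besides H2AFZ, H2AFY2 and H3F3B, the text names every gene of the lists found by name, and for each of the 3 the 3 named entries with the highest Pearson r over 16 libraries, leaving out repeats (within 2% or 2 counts in every library). The other lists gave no gene found by name for theca, endothelium, red blood cells, luteal cells and proliferation. No sequences were used here. Counting errors and floors leave out PCR duplication, since amplified reads are not independent molecules.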

Additional observations from a re-analysis of the deposited data

Results flagged for a closer look

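In groups of 4, a library was singled out where its gap to the nearest other library took up more of the group's range than chance gives in about 1 of 20 groups. This was the case 8 times in 58 groups of values tested. The chance rate holds for normally distributed values. Flagged groups such as H1FOO in contralateral granulosa and MUC16 in contralateral cumulus libraries held 0 CPM in every other library. The number of flags is therefore not read against that rate. H2AFY2 was low in ipsilateral granulosa library 3, at 35.0 CPM where the others held 59.3 to 63.1 CPM, and high in contralateral granulosa library 3, at 77.4 CPM where the others held 44.6 to 45.3 CPM. The oocyte markers stood apart in contralateral cumulus library 4, with H1FOO at 92.6 CPM and BCL2L10 at 112 CPM, and in contralateral granulosa library 3, at 5.25 and 5.55 CPM. MUC16 stood apart in contralateral cumulus library 2, at 2.09 CPM, and in contralateral granulosa library 3, at 24.7 CPM.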

How the results depend on the processing

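No paired analysis was possible because the labels give no replicate numbers shared between groups. The called differences between cell types of H2AFZ, H2AFY2 and H3F3B over both sides kept their direction and passed under each alternative. Leaving out 1 library gave -0.75 to -0.67, -1.22 to -1.01 and -0.44 to -0.34, and the other settings gave -0.75 to -0.63, -1.15 to -0.99 and -0.40 to -0.30. Between the ipsilateral groups H3F3B had -0.35 to -0.15 when 1 library was left out, and passed only without ipsilateral granulosa library 1. Side values near 0 changed sign when 1 library was left out, for H2AFZ in cumulus cells (-0.142 to 0.024) and for H2AFY2 in granulosa cells (-0.031 to 0.30). With the 3 libraries highest in oocyte markers left out, H2AFY2 between the contralateral groups no longer passed (-0.594, adjusted p = 0.0985), in a fit with fewer libraries, and edgeR called 30 entries for side in cumulus cells. Contralateral granulosa library 3, the highest for H2AFY2, was among these libraries, and without it alone the contralateral value was -0.63 and passed. Where edgeR called 0, DESeq2 without the filter on low counts called 120 entries for side in cumulus cells, 1 in granulosa cells and 1 for the difference of side effects, and with the filter 109, 1 and 0. The cause was not tested. H3F3C turned to 0.004 on library totals alone. LOC101906870 (HIRA) turned to 0.038 on library totals alone, to 0.011 by limma-voom and to 0.13 without 2 and to 0.19 without 3 of the libraries highest in oocyte markers, and ran from -0.17 to 0.12 when 1 library was left out. Scaling by library totals alone moved the median log2 fold change of all entries between the contralateral groups by 0.10, and H2AFZ, H2AFY2 and H3F3B passed there. The leaving out of these libraries, DESeq2 with the filter, the use of Ensembl entries and the settings of the ratios were chosen after seeing the data.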
